A study of Mus musculus with 8 samples.

Results

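A set of 10 genes was followed in cold-exposed mouse adipose tissue, chosen by name: the MHC class II chains H2-Aa, H2-Ab1 and H2-Eb1, the invariant chain Cd74, the peptide loading genes H2-DMa and H2-DMb1, the regulator Ciita, and the conventional dendritic cell genes Clec9a, Xcr1 and Flt3. All 10 were matched by symbol among the 18395 genes of the count table, and all 10 were among the 13901 that passed the filter on low counts. RNA was sequenced from 8 adipose tissue samples of mice held at 4 °C for 6 hours. Of these, 4 came from control mice (WT) and 4 from mice whose brown adipocytes had been made to lack Kindlin-2 (KO), the integrin-binding focal adhesion protein encoded by Fermt2. The comparison asks what that loss does in tissue that has to produce heat. The labels give the tissue as adipose, with no depot, and the sources used here do not give the strain, sex, age or Cre driver. The deletion is described for brown adipocytes, whereas the RNA is that of the whole tissue with its blood vessels and immune cells.

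MHC class II molecules are pairs of an alpha and a beta chain that show peptides from engulfed material to CD4+ T cells. They are assembled on the invariant chain, and the H2-DM heterodimer exchanges the invariant chain's remnant for peptide. Ciita is the coactivator that switches the whole gene set on, in dendritic cells, B cells and activated macrophages, and under interferon gamma in other cells. Conventional dendritic cells are the main cells that carry antigen to T cells. Their growth depends on the receptor tyrosine kinase Flt3 and its ligand Flt3l, and the type 1 subset carries Clec9a, a receptor for dead cells, and Xcr1, a chemokine receptor for Xcl1.

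Ciita does not bind DNA itself but joins factors sitting on a shared promoter module, of which the X box (bound by RFX) and the Y box (bound by NF-Y) are the best known parts. Promoter sequences from RefSeq on GRCm38.p6, reaching 250 bases before and 50 bases after each gene start, were matched for 7 of the 10 genes. Those of H2-Ab1, Cd74 and Ciita were not used here. The X box was searched as AG, any 2 bases, AC, any 2 bases and ATG, and the Y box as ATTGG, each on both strands. The stretches below run from 120 to 21 bases before the gene start, 5′ to 3′ on the gene's strand, with motif matches in capitals. They are shown as examples of the module, and its part in the levels measured here was not tested. H2-Eb1 and H2-DMb1 match both patterns, H2-Aa matches only the Y box pattern and Clec9a matches neither. Only exact matches were searched, so an X box with other letters would be missed.
H2-Eb1, chr17:34305747-34305846, plus strand: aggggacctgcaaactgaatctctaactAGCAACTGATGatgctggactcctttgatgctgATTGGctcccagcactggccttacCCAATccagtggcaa
H2-DMb1, chr17:34153071-34153170, plus strand: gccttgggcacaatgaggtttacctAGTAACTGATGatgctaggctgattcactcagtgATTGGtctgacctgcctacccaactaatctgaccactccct
H2-Aa, chr17:34287844-34287943, minus strand: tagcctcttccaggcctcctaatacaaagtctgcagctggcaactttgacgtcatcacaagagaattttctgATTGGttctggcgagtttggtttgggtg
Clec9a, chr6:129408742-129408841, plus strand: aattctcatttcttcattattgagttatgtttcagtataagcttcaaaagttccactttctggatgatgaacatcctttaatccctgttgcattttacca

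In H2-Eb1 the X box letters start 92 bases and the Y box letters 59 bases before the gene start, and in H2-DMb1 95 and 61 bases before it. H2-Aa matched only the Y box pattern, 48 bases before the start. The X box pattern occurred in 3.09% of 32851 promoters and the Y box pattern in 37.4%, so the second alone is common. An X box followed by a Y box on one strand, with starts 28 to 38 bases apart, a spacing set after these promoters had been seen, occurred in 10 promoters (0.0304%). Those 10 included H2-Eb1, H2-DMb1 and the class II relatives H2-Ob and H2-Eb2. H2-DMa holds the Y box letters in 1 of its 2 listed promoters, 198 bases before the start, Xcr1 holds them 190 bases before it, and Flt3 has no match. These are matches of letters, and binding was not measured.

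Library totals ran from 33672272 to 43253559 counts. Fermt2 was measured first, as a check of the labels. Levels are in CPM, the count as a share of the library total, corrected with TMM factors (trimmed mean of M values). Fermt2 averaged 229 CPM in WT, with a lowest library of 201 CPM. In KO it averaged 168 CPM, with a highest library of 192 CPM, so the groups did not overlap. Every KO library lay below every WT library for 7.44% of all genes tested, and for 11.2% without KO replicate 2. By edgeR's quasi-likelihood test the log2 fold change of Fermt2 was -0.45 ± 0.14 (SE, adjusted p = 0.134), and -0.35 ± 0.12 (adjusted p = 0.125) without KO replicate 2. Fermt2 was not called. Adipocyte transcripts were abundant in every library, with Fabp4 between 7400 and 11100 CPM. A pair of libraries stood apart. In WT replicate 3 the 9 skeletal muscle genes summed to 36600 CPM, against 3.88 to 235 CPM elsewhere. In KO replicate 2 the interferon-induced GTPase Gbp2, singled out after its values were seen, reached 1500 CPM against at most 54.2 CPM elsewhere. Fold changes are therefore given with and without KO replicate 2. No label says that samples of a group came from separate animals, so the p-values describe only how far these samples spread, which may be technical.

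The class II chains were high in KO replicate 2, intermediate in KO replicates 3 and 4, and at the WT level in KO replicate 1. Cd74, the invariant chain, stood at 182, 169, 155 and 122 CPM in the WT libraries, here and in what follows in the order of replicates 1 to 4. The KO libraries stood at 175, 638, 326 and 270 CPM. Replicates 2, 3 and 4 of KO thus lay above all WT libraries and replicate 1 lay inside the WT range. The WT mean was 157 ± 25.8 CPM, the KO mean 352 ± 200 CPM (SD, n = 4 each), and it was 257 ± 76.6 CPM for the 3 KO libraries other than replicate 2. The log2 fold change was 1.17 ± 0.36 (SE; adjusted p = 0.142) with 8 libraries and 0.71 ± 0.21 (adjusted p = 0.0994) without KO replicate 2. In whole tissue, more cells of a type and more RNA per cell cannot be told apart.

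H2-Ab1, the beta chain of I-A, was measured at 68.1, 55, 90.6 and 56.7 CPM in WT and at 82.8, 334, 167 and 137 CPM in KO. KO replicate 1 lay under the highest WT library, replicate 3, and the other KO libraries lay above it. Its log2 fold change was 1.41 ± 0.40 (adjusted p = 0.131) with 8 libraries and 0.93 ± 0.26 (adjusted p = 0.0882) without KO replicate 2. With WT replicate 3, its highest WT library, left out as well, H2-Ab1 was called by edgeR, at 1.10 ± 0.23 (adjusted p = 0.0438). It was the only member called in that comparison of 3 against 3, which called 461 genes in all, 253 of them higher in KO.

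H2-Aa, the alpha chain that pairs with it, was measured at 93.9, 69.1, 114 and 72.3 CPM in WT and at 92.8, 407, 197 and 155 CPM in KO. Its order of libraries was that of H2-Ab1 within KO. On the log2 scale KO minus WT was 1.28 ± 0.42 (adjusted p = 0.158), and 0.76 ± 0.27 (adjusted p = 0.149) without KO replicate 2.

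H2-Eb1, the beta chain of I-E, was measured at 102, 90.9, 90.2 and 58.7 CPM in WT and at 83.3, 365, 177 and 132 CPM in KO. Here KO replicate 1 lay below 3 of the 4 WT libraries. KO minus WT on the log2 scale was 1.15 ± 0.42 (adjusted p = 0.186), and 0.61 ± 0.27 (adjusted p = 0.219) without KO replicate 2. The gene annotated at the alpha partner of I-E, H2-Ea-ps, had 2 counts in KO replicate 3 and 0 in the other 7 libraries, where a count of 0 allows up to 3 counts; it was looked up after the chains had been seen. Mouse strains of the H2-b haplotype are known to lack that alpha chain, and no strain is named here.

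**Figure D1:**
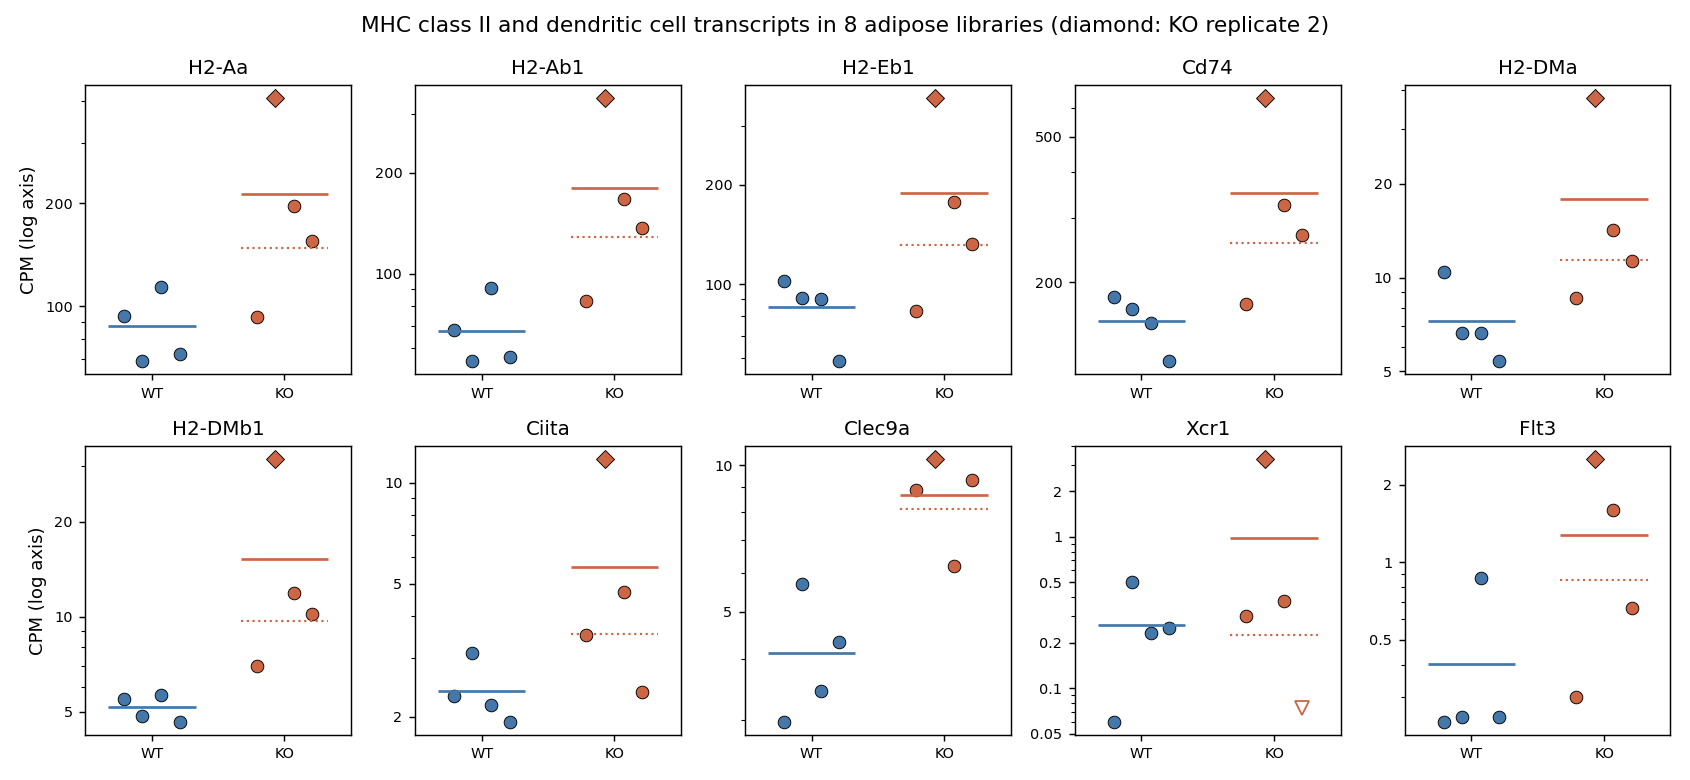
Level of each of the 10 genes in CPM on a log axis, with 1 symbol per library, WT in blue and KO in orange. Solid bars are group means (n = 4), dotted bars the KO mean without KO replicate 2 (diamond), and the open triangle marks Xcr1 in KO replicate 4, which had 0 counts and is drawn at the level of 3 counts (0.0739 CPM). In the class II panels KO replicate 1 sits at or just above the WT points and KO replicate 2 far above them; in the Clec9a panel all 4 KO libraries sit above all WT libraries.

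The peptide loading genes followed the chains within KO. H2-DMb1, the beta chain of H2-DM, was measured at 5.49, 4.85, 5.65 and 4.65 CPM in WT, a narrow range, and at 6.98, 31.6, 11.9 and 10.2 CPM in KO. All 4 KO libraries lay above all 4 WT libraries. The log2 fold change was 1.55 ± 0.43 (adjusted p = 0.126), and 0.90 ± 0.21 (adjusted p = 0.0569) without KO replicate 2, the smallest adjusted p of the 10 genes in that comparison. H2-DMb1 has a near copy in H2-DMb2, so reads could be divided between them in counting; H2-DMb2 was counted at 0.728 to 5.14 CPM, with a log2 fold change of 0.56 that was -0.15 without KO replicate 2.

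H2-DMa, the alpha chain of H2-DM, was measured at 10.4, 6.64, 6.65 and 5.4 CPM in WT and at 8.57, 37.7, 14.2 and 11.3 CPM in KO. WT replicate 1 lay above KO replicate 1, and the groups overlapped by that pair alone. Its log2 fold change was 1.3 ± 0.46 (adjusted p = 0.174), and 0.64 ± 0.26 (adjusted p = 0.182) without KO replicate 2.

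Ciita, the coactivator of the set, was measured at 2.31, 3.1, 2.16 and 1.93 CPM in WT and at 3.5, 11.8, 4.73 and 2.37 CPM in KO. Its order within KO differed from that of the chains: KO replicate 4 lay inside the WT range and KO replicate 1 just above it. On the log2 scale the difference was 1.23 ± 0.47 (adjusted p = 0.187), and 0.57 ± 0.30 (adjusted p = 0.291) without KO replicate 2.

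Clec9a, the dead cell receptor of type 1 conventional dendritic cells, had a different profile. It was measured at 2.97, 5.7, 3.43 and 4.34 CPM in WT and at 8.87, 10.3, 6.2 and 9.31 CPM in KO. All 4 KO libraries lay above all 4 WT libraries, KO replicate 3 was the lowest of them, and KO replicate 2 was 1.27 times the mean of the other KO libraries, where it was 2.48 to 3.34 times that mean for the 7 class II genes. The WT mean was 4.11 ± 1.2 CPM and the KO mean 8.68 ± 1.76 CPM (SD, n = 4 each). KO minus WT was 1.08 ± 0.25 (adjusted p = 0.1) with 8 libraries, and it was 0.98 ± 0.26 (adjusted p = 0.0764) without KO replicate 2. It stayed between 0.95 and 1.27 when each library in turn was left out of the 8.

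The other dendritic cell receptors were near the limit of counting. Flt3, the growth factor receptor, had 8, 8, 26 and 10 counts in WT and 13, 113, 60 and 27 counts in KO. WT replicate 3 stood apart within its group, at 0.865 CPM against 0.24 to 0.251 CPM, and lay above KO replicates 1 and 4. Its log2 fold change was 1.67 ± 0.72 (adjusted p = 0.223), 1.09 ± 0.70 (adjusted p = 0.377) without KO replicate 2, and 1.77 ± 0.67 (adjusted p = 0.156) without that library and WT replicate 3.

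Xcr1, the chemokine receptor, had 2, 16, 7 and 10 counts in WT and 13, 147, 14 and 0 counts in KO. Its higher KO mean came from replicate 2 alone, which was 14.6 times the mean of the other KO libraries. The log2 fold change of 1.92 ± 1.25 (adjusted p = 0.384) turned to -0.22 ± 0.99 (adjusted p = 0.919) without that library. A count of 0 in KO replicate 4 allows up to 0.0739 CPM, which is below 3 of the WT libraries. Xcl1, its ligand, which T and NK cells make, had 153 counts in KO replicate 2 and 1 to 15 in the other 7 libraries, too few to pass the filter.

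Across all 13901 genes, edgeR's quasi-likelihood test called 0 at an adjusted p under 0.05 (0%), and so 0 of the 10 genes. At an unadjusted p under 0.05, 9 of the 10 lay higher in KO, against 10.4% of all genes. DESeq2 called 7 of the 10, all higher in KO, against 4% of all genes it tested. Limma-voom called 0 (0% of all genes higher), and with sample quality weights it called 4, all higher, against 2.94%. Without KO replicate 2, edgeR called 361 of 14027 genes (2.57%), 238 higher in KO (1.7%) and 123 lower (0.877%), and 0 of the 10. Scaled by library totals alone, that split was 1692 higher and 64 lower. At an unadjusted p under 0.05, 7 of the 10 lay higher without that library, against 11.8% of all genes, and DESeq2 called 5, all higher, against 6.53%.

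The median log2 fold change of the 10 genes was 1.29 with 8 libraries and 0.74 without KO replicate 2, beside 0.00362 and -0.0176 over all genes tested. All 10 lay above 0 with 8 libraries, as did 50.5% of all genes, and 9 lay above 0 without KO replicate 2, as did 48.3%. Groups that did not overlap, with KO above WT, were seen for 2 of the 10 (H2-DMb1 and Clec9a), against 5.82% of all genes, and for the same 2 without KO replicate 2, against 12%. Counted by library, 10 of 10 genes lay above every WT library in KO replicate 2, 9 in replicate 3, 7 in replicate 4 and 3 in replicate 1 (H2-DMb1, Ciita and Clec9a). The shares of all genes that did so were 27%, 21.9%, 25.6% and 30.2%. KO replicate 1 thus had the largest share of all genes above WT and the smallest number of these 10. With library totals as the scale, the median over all genes was 0.264, and that of the 10 genes was 1.55.

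**Figure D2:**
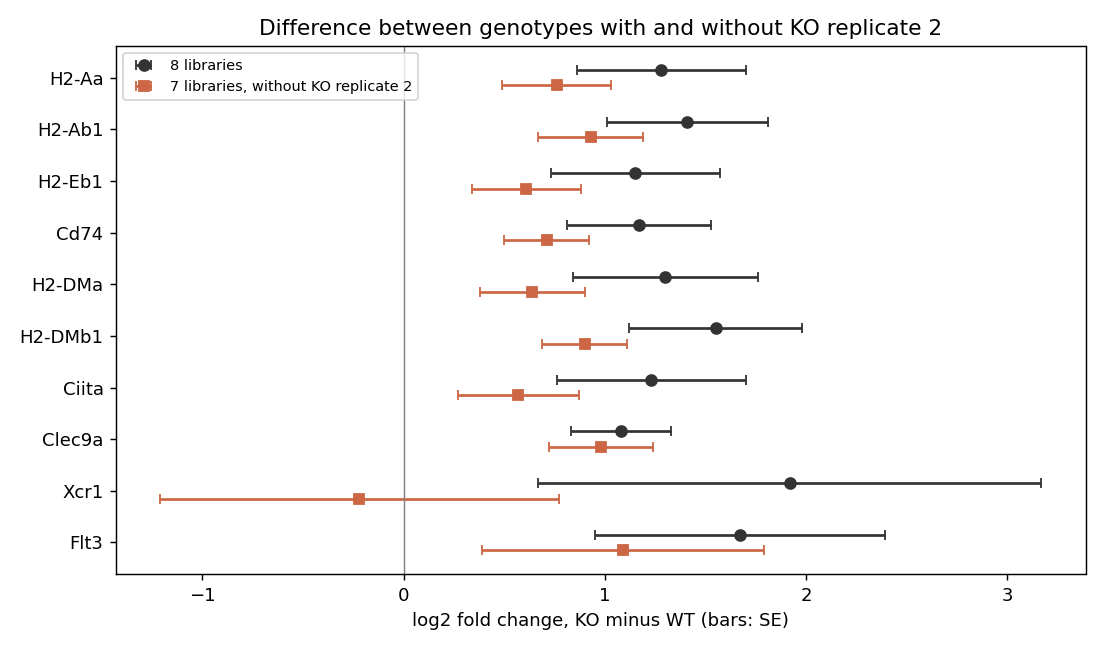
Log2 fold change of KO minus WT for each gene with 8 libraries (black circles) and with the 7 left without KO replicate 2 (orange squares), with bars of 1 SE. Every class II gene moves towards 0 without that library and stays above it, Clec9a goes from 1.08 to 0.98, and Xcr1 crosses 0.

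Per length, using the longest principal transcript of GENCODE M21, the order in WT was Cd74 (111 ± 18.3 CPM per kilobase), H2-Aa (77.5 ± 18.6), H2-Ab1 (55.8 ± 13.5), H2-Eb1 (51.2 ± 11.2), H2-DMa (4.39 ± 1.32), Clec9a (4.03 ± 1.18), H2-DMb1 (3.68 ± 0.346), Ciita (0.396 ± 0.0845), Flt3 (0.11 ± 0.0844) and Xcr1 (0.0587 ± 0.0408; SD, n = 4). The means of H2-Ab1 and H2-Eb1 lay within each other's SD, as did those of H2-DMa and Clec9a. The H2-DMb1 mean lay within the SD of H2-DMa and of Clec9a, and the Xcr1 mean within that of Flt3. In KO the chains followed in the same order, with 250 ± 142, 189 ± 121, 149 ± 89.4 and 114 ± 73.8 CPM per kilobase. The spread within KO exceeded the steps between them. KO replicate 2 was the highest KO library for each chain, so this shared spread does not measure how firm their order is. Without KO replicate 2 those means were 182, 132, 106 and 78.5 CPM per kilobase.

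The class II genes varied less against one another than in level. The ratio of H2-Eb1 to Cd74 lay between 0.477 and 0.582 in all 8 libraries, so its highest value was 1.22 times its lowest. For H2-Aa and H2-Ab1 that factor was 1.8 and 1.79, with WT replicate 3 the highest and WT replicate 2 the lowest. For the H2-DM chains it was 1.5 and 1.72, for Ciita 2.29 and for Clec9a 3.13. In KO replicate 2, H2-Eb1 stood at 0.572 of Cd74 and Clec9a at 0.0162, the lowest of the 8 libraries for Clec9a.

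Relative to Ptprc, the CD45 antigen of all leukocytes, the class II genes had lower mean ratios in KO. Ptprc was measured at 11.9, 11.1, 8.22 and 5.32 CPM in WT and at 14.9, 68.8, 22 and 14.7 CPM in KO, so that all KO libraries lay above all WT libraries (log2 fold change 1.72 ± 0.56, adjusted p = 0.158; 0.91 ± 0.28, adjusted p = 0.101 without KO replicate 2). The ratio of Cd74 to Ptprc was 18.1 ± 3.63 in WT and 13.5 ± 3.91 in KO (SD, n = 4), with the lowest value, 9.27, in KO replicate 2. For H2-Ab1 the ratio was 8.09 ± 3.19 in WT and 6.84 ± 2.02 in KO, and for Clec9a 0.499 ± 0.238 and 0.415 ± 0.237. In each of these the groups overlapped. Without KO replicate 2 the KO means were 15 for Cd74, 7.49 for H2-Ab1 and 0.504 for Clec9a, the last beside 0.499 in WT.

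Relative to Adgre1, the F4/80 antigen of macrophages, they stood the other way. Adgre1 was measured at 7.41, 4.35, 9.05 and 5.68 CPM in WT and at 6.01, 14, 11 and 5.79 CPM in KO, and KO minus WT was 0.47 on the log2 scale (adjusted p = 0.423; 0.19, adjusted p = 0.744 without KO replicate 2). H2-Ab1 was 10.5 ± 1.5 times Adgre1 in WT and 19.1 ± 5.41 times in KO, and every KO library, from 13.8 to 23.9, lay above every WT library, from 9.19 to 12.6. H2-Aa was 13.5 ± 1.59 times Adgre1 in WT and 22.3 ± 6.62 times in KO, with KO replicate 1 at 15.4 and WT replicate 2 at 15.9. H2-Ab1 was the only class II gene whose groups did not overlap in this ratio. Cd74, at 25.5 ± 9.35 in WT and 37.7 ± 9.63 in KO, had WT replicate 2 at 38.7 and KO replicate 1 at 29. H2-Eb1, H2-DMa, H2-DMb1 and Ciita overlapped as well, with higher mean ratios in KO. Without KO replicate 2 the KO means were 17.6 for H2-Ab1 and 20.1 for H2-Aa. Ratios were described and not tested.

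**Figure D3:**
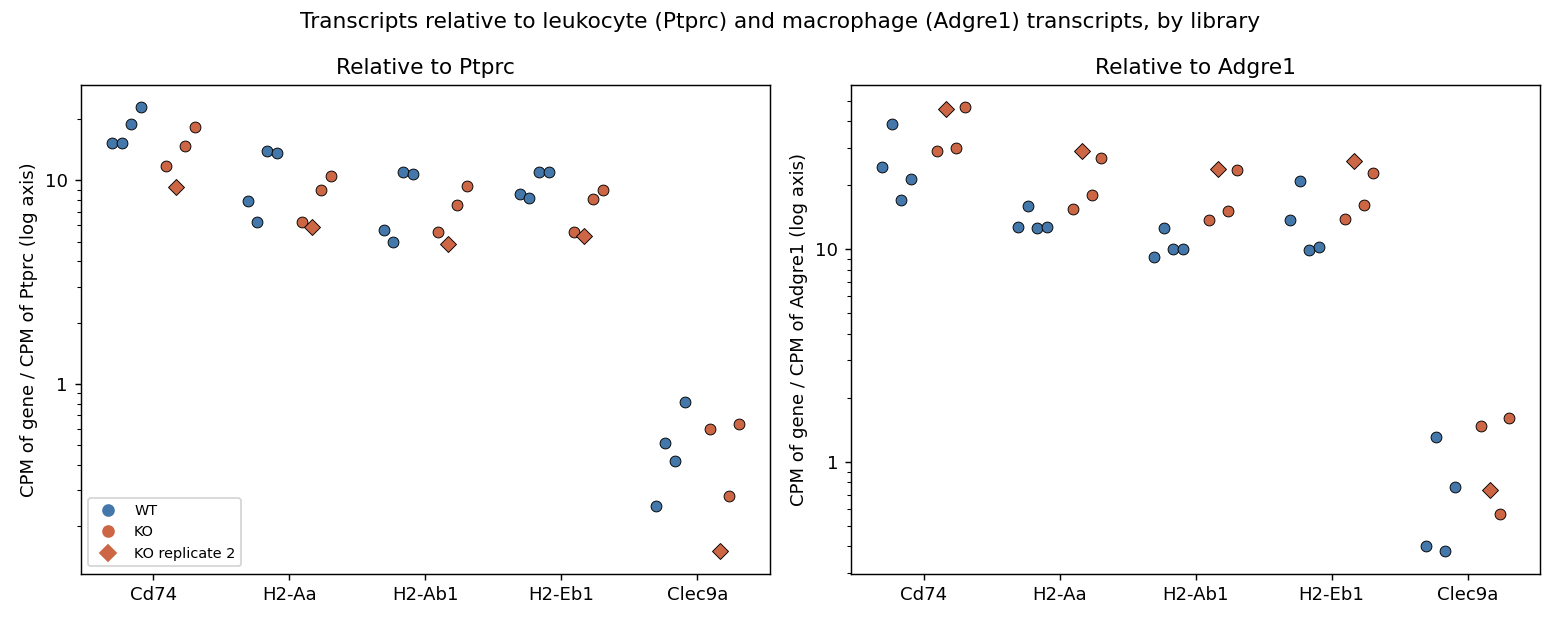
CPM of Cd74, the 3 class II chains and Clec9a divided by the CPM of Ptprc (left) and of Adgre1 (right) in each library, on log axes, with WT in blue, KO in orange and KO replicate 2 as a diamond. On the left the groups overlap and KO replicate 2 is the lowest library in each column. On the right the H2-Ab1 ratio is higher in every KO library than in every WT library, and the groups overlap in the other columns.

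A list of other class II pathway genes was mixed. Of 16 listed genes (the remaining H2 genes, lysosomal proteases, the promoter factors and the ligase Marchf1), 15 were tested and 0 called in either comparison, with a median log2 fold change of 0.27 (0.23 without KO replicate 2). H2-Ob, a chain of the H2-DO modulator of peptide loading, was measured at 0.84, 0.376, 0.565 and 0.452 CPM in WT and at 1.29, 2.37, 1.52 and 1.23 CPM in KO. Its groups did not overlap, and its log2 fold change was 1.52 ± 0.39 (adjusted p = 0.112; 1.27, adjusted p = 0.105 without KO replicate 2). H2-Oa, its partner chain, was at 1.42 ± 0.88 (adjusted p = 0.355; 1.16 without KO replicate 2), on a WT mean of 0.163 CPM. Ctss, the protease cathepsin S that trims the invariant chain, was at 1.11 ± 0.58 (adjusted p = 0.292) and at 0.29 ± 0.31 (adjusted p = 0.613) without that library. Rfxap, a subunit of the RFX complex that binds the X box, had the smallest p of the list without KO replicate 2, at 0.50 ± 0.14 (adjusted p = 0.0811). In that comparison the RFX subunits Rfx5 and Rfxank stood at -0.36 ± 0.27 (adjusted p = 0.444) and 0.30 ± 0.22 (adjusted p = 0.446). Over the list, 13 genes lay higher and 2 lower with 8 libraries, and 12 higher and 3 lower without KO replicate 2.

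Among the other genes of type 1 conventional dendritic cells, 10 of 12 were tested, with a median of 0.70 (0.28 without KO replicate 2). With 8 libraries 8 lay higher and 2 lower, and without KO replicate 2 6 lay higher and 4 lower. Those 4 were Itgae (-0.55), Snx22 (-0.08), Naaa (-0.33) and Cd24a (-1.96), and edgeR called 0 of them. Cd24a stood at 88.7 CPM in WT replicate 3 and at 5.07 to 7.19 CPM in the other libraries. With WT replicate 3 left out as well, its log2 fold change was 0.24, and Itgae, Snx22 and Naaa stayed below 0. Batf3, a transcription factor this subset requires, was measured at 1.08, 0.814, 0.732 and 0.452 CPM in WT and at 1.5, 4.51, 2.27 and 2.37 CPM in KO. No libraries of the 2 groups overlapped, and the log2 fold change was 1.79 ± 0.42 (adjusted p = 0.103), and 1.41 (adjusted p = 0.0764) without KO replicate 2. Zbtb46, a factor of conventional dendritic cells that endothelial cells also express, was the 1 gene of the list called without KO replicate 2, at 0.92 ± 0.15 (adjusted p = 0.0322). It was measured at 62, 62.9, 46.1 and 64 CPM in WT and at 124, 51.4, 96 and 114 CPM in KO. KO replicate 2, the highest library for the class II genes, was thus inside the WT range for Zbtb46.

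Of the lists for the other dendritic states, the type 2 and shared list had 9 of 10 genes tested, a median of 0.54 (0.03 without KO replicate 2) and 0 called. With 8 libraries 8 lay higher and 1 lower, and without KO replicate 2 5 lay higher and 4 lower. Those 4 were Mgl2 (-0.02), Irf4 (-0.68), Dpp4 (-0.85) and Tnip3 (-0.13). The smallest p of the list was that of Cd209a, a C-type lectin, with 1.33 ± 0.44 (adjusted p = 0.156). Without KO replicate 2 Cd209a was at 0.98 ± 0.43 (adjusted p = 0.21). In the list of maturation and costimulation, 9 of 11 were tested with a median of 0.56 (0.43). All 9 lay higher with 8 libraries. Without KO replicate 2, 7 lay higher and 2 lower, Ccr7 (-0.03) and Relb (-0.17). Fscn1, an actin-bundling protein of mature dendritic cells, was the 1 gene called without that library (0.76 ± 0.17, adjusted p = 0.0489). Fscn1 stood at 34.8 to 84 CPM and Ccr7 at 0.0502 to 1.88 CPM, and which cells carried Fscn1 was not tested. Cd40, the costimulatory receptor, differed by 1.04 ± 0.35 (adjusted p = 0.16) with 8 libraries and by 0.94 ± 0.37 (adjusted p = 0.176) with 7. In the plasmacytoid list 2 of 7 were tested, and Tcf4 rose without KO replicate 2 (0.74 ± 0.14, adjusted p = 0.0344), whereas Siglech, which marks these cells, stayed between 0.0986 and 0.732 CPM in all libraries. Fscn1 and Tcf4 had KO replicate 2 inside the WT range, as Zbtb46 did.

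The growth factor Flt3l was measured at 7.44, 9.21, 4.76 and 7.76 CPM in WT and at 13.8, 11.7, 9.49 and 12.8 CPM in KO. All KO libraries lay above all WT libraries, by a small margin between KO replicate 3 and WT replicate 2. Its log2 difference was 0.71 (adjusted p = 0.139), and 0.72 ± 0.24 (adjusted p = 0.118) without KO replicate 2. Csf2rb, the common beta chain of the GM-CSF receptor, differed by 0.76 ± 0.22 (adjusted p = 0.129), and by 0.61 ± 0.2 (adjusted p = 0.124) without KO replicate 2. In the list of growth factors and ligands 6 of 8 were tested, with a median of 0.74 (0.54) and 0 called.

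**Figure D4:**
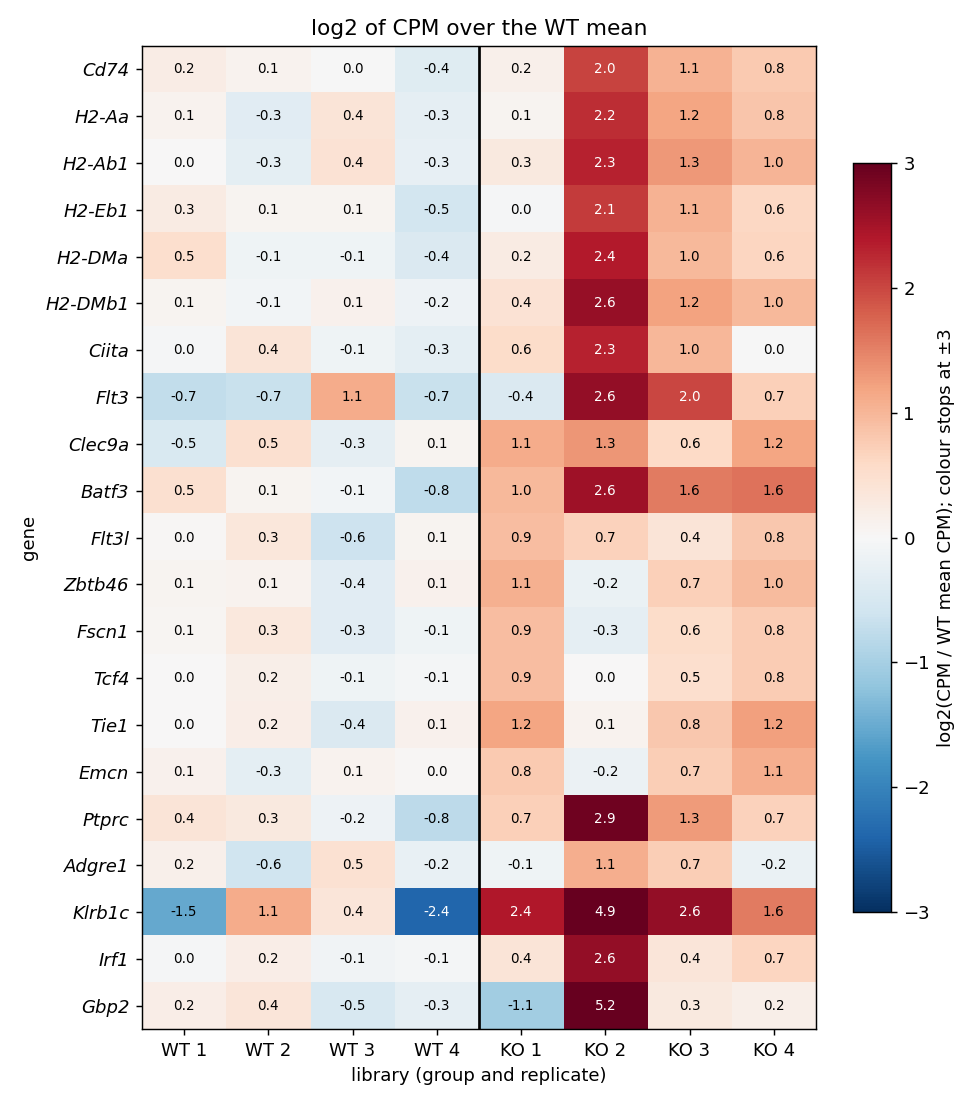
Log2 of CPM over the WT mean in each library, for the 7 class II genes, Flt3 and Clec9a, and for reference genes of dendritic cells, endothelium, leukocytes, macrophages, NK cells and the interferon response. The class II block, Ptprc, Irf1 and Gbp2 are darkest in KO replicate 2; Clec9a and Flt3l lie above the WT mean in all 4 KO libraries; Zbtb46, Fscn1, Tcf4, Tie1 and Emcn lie above it in KO replicates 1, 3 and 4 and within 0.27 of the WT mean in KO replicate 2.

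Within KO, the sums of T and NK cell, macrophage and shared leukocyte genes ranked the libraries as Cd74 did. The sums of endothelial and B cell genes did not. The part of other cell types in the results was not tested. The 14 T and NK cell genes summed to 6.98 to 44.9 CPM in WT and to 28.8, 274, 54.7 and 32 CPM in KO, with all 14 higher in KO (median 2.03, and 0.87 with 12 of 14 higher without KO replicate 2). Klrb1c, an NK cell receptor, differed by 3.45 ± 0.94 (adjusted p = 0.122), and by 2.28 ± 0.71 (adjusted p = 0.105) without KO replicate 2. Cd3e, of the T cell receptor complex, reached 7.99 CPM in KO replicate 2 against 0.126 to 4.09 CPM elsewhere (1.21, adjusted p = 0.54, and 0.1, adjusted p = 0.967 without that library). The 4.09 CPM was that of WT replicate 3. With WT replicate 3 left out as well, the log2 fold change of Cd3e was 1.8 ± 0.68 (edgeR adjusted p = 0.156). The list of interferon gamma and its targets summed to 508 to 719 CPM in WT and to 580, 3420, 611 and 619 CPM in KO. Its median was 1.21 with 8 libraries and -0.08 without KO replicate 2. Irf1, an interferon-induced transcription factor, was measured at 44.9 to 55.2 CPM in WT and at 63.3, 300, 61.6 and 75.9 CPM in KO (1.37 ± 0.54, adjusted p = 0.205; 0.47 ± 0.12, adjusted p = 0.0758 without KO replicate 2). Ifng itself had at most 0.501 CPM outside KO replicate 2 and 2.68 CPM in it.

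The 14 macrophage genes summed to 225 to 331 CPM in WT and to 268, 684, 384 and 313 CPM in KO, with a median of 0.42 (-0.03 without KO replicate 2) and 0 called. Of these genes 13 lay higher and 1 lower with 8 libraries, and 6 higher and 8 lower without KO replicate 2. The 1 lower with 8 libraries was Lyve1, listed here for perivascular macrophages, which had the smallest p of the list. Its log2 fold change was -0.92 ± 0.40 (adjusted p = 0.223), and -0.79 ± 0.42 (adjusted p = 0.289) without KO replicate 2. B cell genes, whose cells carry class II as well, were near the limit: the 9 genes summed to 1.94 to 4.68 CPM in WT and to 3.82 to 4.68 CPM in KO, and Cd79a was at 1.13, 1.23, 1.15 and 1.08 CPM in KO, inside the WT range of 0.499 to 1.86 CPM. The B cell median was 0.58 over 4 genes tested (0.74 over 5 without KO replicate 2), and Cd79b, of the B cell receptor, differed by 1.01 ± 0.5 (adjusted p = 0.264; 0.83 ± 0.53, adjusted p = 0.377 without that library). In the lymph node stroma list, 6 of 7 genes were in the table and summed to 3.52 to 6.69 CPM in WT and 2.46 to 6.68 CPM in KO, with a median of -0.3 over 2 tested (-0.07 over 3). Neutrophil and mast cell genes summed to 9.74 to 20.2 CPM in WT and 16.6 to 28.5 CPM in KO, with a median of 0.7 (0.62) and Csf3r, a cytokine receptor, at 0.71 ± 0.32 (adjusted p = 0.232; 0.68 ± 0.34, adjusted p = 0.269 without KO replicate 2). The 5 genes shared by leukocytes, Ptprc among them, summed to 35.3 to 75.6 CPM in WT and to 70.9, 382, 97.8 and 75.1 CPM in KO, with a median of 1.43 (0.43).

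Endothelial genes summed to 2020 to 2700 CPM in WT and to 4130, 2360, 3170 and 4110 CPM in KO, with a median of 0.57 (0.7 without KO replicate 2). Of the 15, 14 lay higher with 8 libraries and all 15 without that library. Without it edgeR called 6 of them, all higher, against 1.7% of all genes called higher. Among the 6 were Tie1 (1.09 ± 0.18, adjusted p = 0.0322), Emcn (0.87 ± 0.14, adjusted p = 0.0322), Esam (0.80 ± 0.13, adjusted p = 0.0322) and Sox17 (0.97 ± 0.17, adjusted p = 0.0335). Adipocyte genes summed to 18700 to 22600 CPM in WT and 15300 to 19500 CPM in KO, and 9 of 10 lay lower (median -0.45, and -0.43 without KO replicate 2), with Cidec, a lipid droplet protein, called without KO replicate 2 (-0.56 ± 0.12, adjusted p = 0.0492). Among 10 brown adipocyte genes, with a median of -0.42 (-0.37), Elovl3, a fatty acid elongase, fell in that comparison (-1.06 ± 0.18, adjusted p = 0.0335). In the skeletal muscle list, which WT replicate 3 dominates, the median was -7.11 (-9.26) and edgeR called 0 genes, with 3 lower at an unadjusted p under 0.05 with 8 libraries and 0 without KO replicate 2.

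By profile over the 8 libraries, the gene most like Cd74 among 11435 compared was H2-Eb1, with a root mean square difference of 0.108 between log2 profiles centred on their own means. Cxcl16 (0.168), Trerf1 (0.168), Sept6 (0.169) and Cd86 (0.174) followed. Clec9a had other neighbours: Gimap5 (0.189), Hopx (0.19), Nemp2 (0.20), Rab27a (0.207) and Itpripl1 (0.208). Itpripl1 was measured at 14.3, 26.1, 17.5 and 20.9 CPM in WT and at 42.2, 36.4, 36.3 and 52.9 CPM in KO, with WT replicate 2 the highest WT library as for Clec9a. The genes most like Flt3 were H2-Ab1 (0.413) and H2-Aa (0.421), with wider gaps at its low counts, then Slc9a9 (0.50), Ctss (0.514) and Cd4 (0.525).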

How the data were processed

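Libraries came from RNA captured by its poly(A) tail and had dUTP added in second-strand synthesis, according to the labels. The authors deposited 1 whole-number count per gene and library, for 18395 genes, with GRCm39 named in the submitters' processing notes. The sources used here name no aligner, counter or annotation. Symbols came from the GENCODE M21 names and were found for 18321 genes, with 74 left without one. In the fixed lists 1 gene was not in the table.

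Genes were kept by filterByExpr by group, scaled by TMM, and tested for KO minus WT with edgeR 4.0.16 (R 4.3.3; robust quasi-likelihood F test), with group as the only term and Benjamini-Hochberg adjustment over all genes tested (threshold 0.05). The same fit was run without KO replicate 2. Each SE is the absolute log2 fold change over the square root of F. CPM use total counts times the TMM factor, and profiles log2(CPM + 0.1), for genes whose log2 CPM averaged 1 or more. The members and the 17 other lists were chosen with earlier results of these data known. Named from each list were up to 4 called genes with the smallest p, or the gene with the smallest p, besides fixed reference genes (Ptprc, Adgre1, Cd79a, Cd3e, Flt3l, Xcl1) and the 5 nearest profiles. Outside that rule, Gbp2, H2-Ea-ps, Fabp4, Siglech, Ifng, H2-DMb2, H2-Oa, Ctss, Itgae, Snx22, Naaa and Cd24a were chosen after their values were seen. So were Rfx5, Rfxank, Mgl2, Irf4, Dpp4, Tnip3, Ccr7 and Relb.

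Alternatives were other scalings (DESeq2 1.42.0 factors, upper quartile, totals), no filter or a stricter one (4 libraries at a CPM of 1 or more), DESeq2, limma-voom (limma 3.58.1) with and without quality weights, no robust dispersion, a replicate block and each library left out. Their use on the 7 libraries was added after seeing the data. On simulated counts with 200 changed genes among 13901, edgeR with 8 libraries recovered 2.99%, 28.4% and 84.8% of those changed 1.5-, 2- and 4-fold, and 8 of its 85 calls were false. Same-numbered libraries deviated together (correlation over 0.1) in 1 of 4 pairs, so numbers were not taken as pairs. Figures were drawn with matplotlib 3.10.9.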

Additional observations from a re-analysis of the deposited data

Results flagged for a closer look

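Within groups of 4, a library was set apart when its gap to the nearest other library as a share of the group's range exceeded Dixon's critical value, which chance does in about 1 group in 20. Among 26 groups checked, 3 did so. Xcr1 stood at 3.28 CPM in KO replicate 2 and at most 0.374 CPM in the other KO libraries. Ptprc stood at 68.8 CPM in the same library, against 14.7 to 22 CPM in the others of its group. Flt3 stood at 0.865 CPM in WT replicate 3, against 0.24 to 0.251 CPM in the other WT libraries. The class II chains in KO replicate 2 did not exceed it.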

How the results depend on the processing

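With 8 libraries the count of genes called was 0, and it was 882 with scaling by totals alone, 1113 with DESeq2, 911 with limma-voom and quality weights, 1 with no filter and 461 with KO replicate 2 and WT replicate 3 left out. Leaving out each library gave 0 to 361 genes (361 without KO replicate 2, 3 without WT replicate 4, 1 without WT replicate 1) and 0 of the 10 members. The members called were 4 with totals alone, 7 with DESeq2, 4 with quality weights and 1 with 6 libraries. Without KO replicate 2, set after seeing the data, the 361 became 1756 with totals alone, 1545 with DESeq2, 1506 with quality weights and 0 with no robust dispersion. Leaving out a further library there gave 0 to 461 (2 without WT replicate 1, 14 without WT replicate 4, 176 without WT replicate 2, 143 without KO replicate 3, 0 without KO replicate 1 or 4), and 0 to 1 member. The members called were then 6, 5 and 5 with totals alone, DESeq2 and quality weights, and 1 with a CPM of at least 1 in 4 libraries. Fermt2 passed with DESeq2 (-0.46, and -0.36 without KO replicate 2) and, without that library, with quality weights (-0.36). Xcr1 changed direction: with 8 libraries it was -1.12 with quality weights, -0.22 to 2.42 with a library left out and -0.26 with 6 libraries. Without KO replicate 2 it was 0.03 with totals alone, 0.04 with the block and -0.79 to 0.35 with a further library left out. The replicate block gave 0 genes and 0 members in both comparisons, with a member median of 1.09 with 8 libraries and 0.70 with 7, and same-numbered WT and KO libraries were the closest in 2 of 4 cases. The causes of these changes were not tested. The other 9 members lay higher in KO under every alternative that gave a value (Flt3 and Xcr1 had none under the stricter filter). Flt3 and Xcr1 are limited by depth, with at most 60 counts in any library but KO replicate 2.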
